A study of Mus musculus with 21 samples.

Results

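The genes described here are 38 that type I interferons are known to induce, taken as a list of names with no threshold on their values. Each was read from 1 probe set of its own, the brightest over all arrays, and 34 of the 38 had such a probe set among the 19937 genes that did. Isg15, Oas1g and Gbp2 had only probe sets annotated to several gene symbols and Ifi44 was not listed in the annotation used here, so these 4 members carry no value. The cells were N202, a clonal line from a mammary tumour of FVB mice with a rat Her-2/neu transgene under the MMTV promoter, to which a green fluorescent histone (H2B-GFP) had been added, and RNA of sorted, cultured cells was hybridised to 21 Affymetrix Mouse Gene ST arrays. Parental cells (P0, 2 arrays) had not been grown on tissue. Adapted cells had been grown as spheroids for 21 days per passage on minced tissue of C57BL/6 mice in a skinfold chamber on nude mice, which lack mature T cells, with G418 selection in culture between passages. The adapted groups were brain passages P1 to P4 (2 arrays each), bone marrow P1 to P4 and lung P1 to P4 (1 array each), breast P1 (1 array) and a second brain experiment at P1 and P2 (1 array each). The labels call the second brain arrays technical replicates, and the methods say that they began from separate cultures of the same cells, so the spread behind every p-value below is that between cultures and not between mice or grafts. Groups with a lone array are assumed to vary like the pairs.

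Type I interferons bind the receptor of IFNAR1 and IFNAR2 and act through the kinases JAK1 and TYK2 on STAT2, which with IRF9 is part of the factor ISGF3. This factor binds the interferon-stimulated response element (ISRE) in promoters and switches on genes that sense foreign nucleic acid, degrade viral RNA, tag proteins with the ubiquitin-like ISG15 and call in leukocytes. Several of the products, among them the sensors RIG-I and MDA5 and the factors IRF7, STAT2 and IRF9, are themselves parts of the pathway that induces interferon or responds to it. Many tumour cell lines hold some of these genes at a basal level with no infection.

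Because the ISRE is the element through which the members are known to be induced, its core was sought in their promoters. RefSeq windows of 300 bases (GRCm38.p6, 250 bases before to 50 after a start site) were at hand for 28 of the 38 members. The core GAAANNGAAA, on either strand, stood in the windows of 15 of these 28 genes (53.6%) and of 3.99% of the 27025 genes with a window. The shorter STAT element TTCNNNGAA stood in 6 of the 28 (21.4%) and in 9.6% of all genes. Of the 7 members with a window that passed the test in at least 1 comparison below, Ddx58 and Ifih1 held the ISRE core and Dtx3l, Ifi35, Irf1, Oasl2 and Xaf1 did not hold these letters. The windows of Ifih1 (chr2:62646206-62646505, minus strand) and Ddx58 (chr4:40239776-40240075, minus strand) are printed with the core in capitals, since both genes recur in the results. In Ddx58 the core reads on the opposite strand of the gene, and in both genes it lies downstream of the annotated start.
Ifih1: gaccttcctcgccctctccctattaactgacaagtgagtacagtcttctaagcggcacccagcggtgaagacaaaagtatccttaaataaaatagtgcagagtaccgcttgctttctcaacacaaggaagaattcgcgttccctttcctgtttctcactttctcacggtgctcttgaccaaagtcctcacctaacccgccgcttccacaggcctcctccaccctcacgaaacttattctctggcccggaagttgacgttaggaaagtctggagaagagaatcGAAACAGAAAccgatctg
Ddx58: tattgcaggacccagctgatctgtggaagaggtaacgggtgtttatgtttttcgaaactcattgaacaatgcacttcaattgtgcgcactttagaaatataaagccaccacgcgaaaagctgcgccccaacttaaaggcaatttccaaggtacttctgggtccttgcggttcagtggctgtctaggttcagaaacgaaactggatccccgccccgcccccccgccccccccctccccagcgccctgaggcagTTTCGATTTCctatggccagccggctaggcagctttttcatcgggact

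Some arrays stand apart. The lower quartile of all values was between 3.77 and 4.09 on the second arrays of brain P1 to P4 and on lung P1, and at most 3.70 on the other arrays. The 2 P0 arrays differed in the members: 28 of the 34 were higher on array 2, by a median of 0.37, while 47.7% of all genes were. The epithelial markers Epcam, Krt8, Krt18, Cdh1, Erbb2, Cldn4 and Cldn7 were bright in every library, with a summed log2 level of 14.1 to 14.58. Of these 7, Erbb2, the mouse gene homologous to the line's oncogene, fell at brain P1 (-1.19, adjusted p = 0.015), P2 (-0.76, adjusted p = 0.045) and P3 (-1.24, adjusted p = 0.046) by limma on the brightest probe sets, and no call held without any 1 of the 4 arrays compared. Erbb2 was also below P0 (10.69 and 10.70) outside that series, with no call. It read 9.01 at P1 of the second brain experiment and 9.21 at bone marrow P3, though 10.99 at lung P3. Of 10 measured leukocyte markers 9 lay below the median gene, and Ptprc, which encodes the pan-leukocyte protein CD45, was at 3.52 to 4.55. The exception was the lysosomal gene Cd68, at 6.03 and 5.99 in P0 and at 7.62 to 8.48 on the 4 brain P1 and P2 arrays, so that the summed leukocyte level was 7.83 to 7.92 in P0 and 8.59 to 9.02 there. Cd68 read 6.6 and 6.87 at brain P3, and was high again at brain P4 (7.22 and 8.22) and at lung P4 (7.49). The part of Cd68 and of Erbb2 in the results was not tested. For the quartiles and the P0 difference, fits without the arrays concerned are given below, and the cause of either was not tested.

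Most members were lower in cells of the first 2 brain passages than in parental cells, and the median level of the 34 was lowest there of the 16 groups. The value used throughout is the log2 RMA level, the logarithm of a normalised probe set intensity, so that a difference of 1 is a doubling. The median of the members' group means was 6.20 in P0, 5.24 at brain P1 and 5.12 at brain P2, against 5.67 and 5.99 at P3 and P4. It was 5.59 to 5.94 on bone marrow, 5.95 to 6.35 on lung, 5.90 on breast and 5.91 and 5.97 in the second brain experiment. The 2 arrays of P0 alone had medians of 6.0 and 6.52, a gap wider than that between any neighbours in this order, so no step of the order exceeded the spread of the P0 pair. The lowest of the 16 group means was at brain P1 or P2 for 19 of the 34 members (55.9%) and for 16.3% of all genes. All 4 brain P1 and P2 arrays lay below both P0 arrays in 20 members (58.8%), against 11.7% of all genes.

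**Figure D1:**
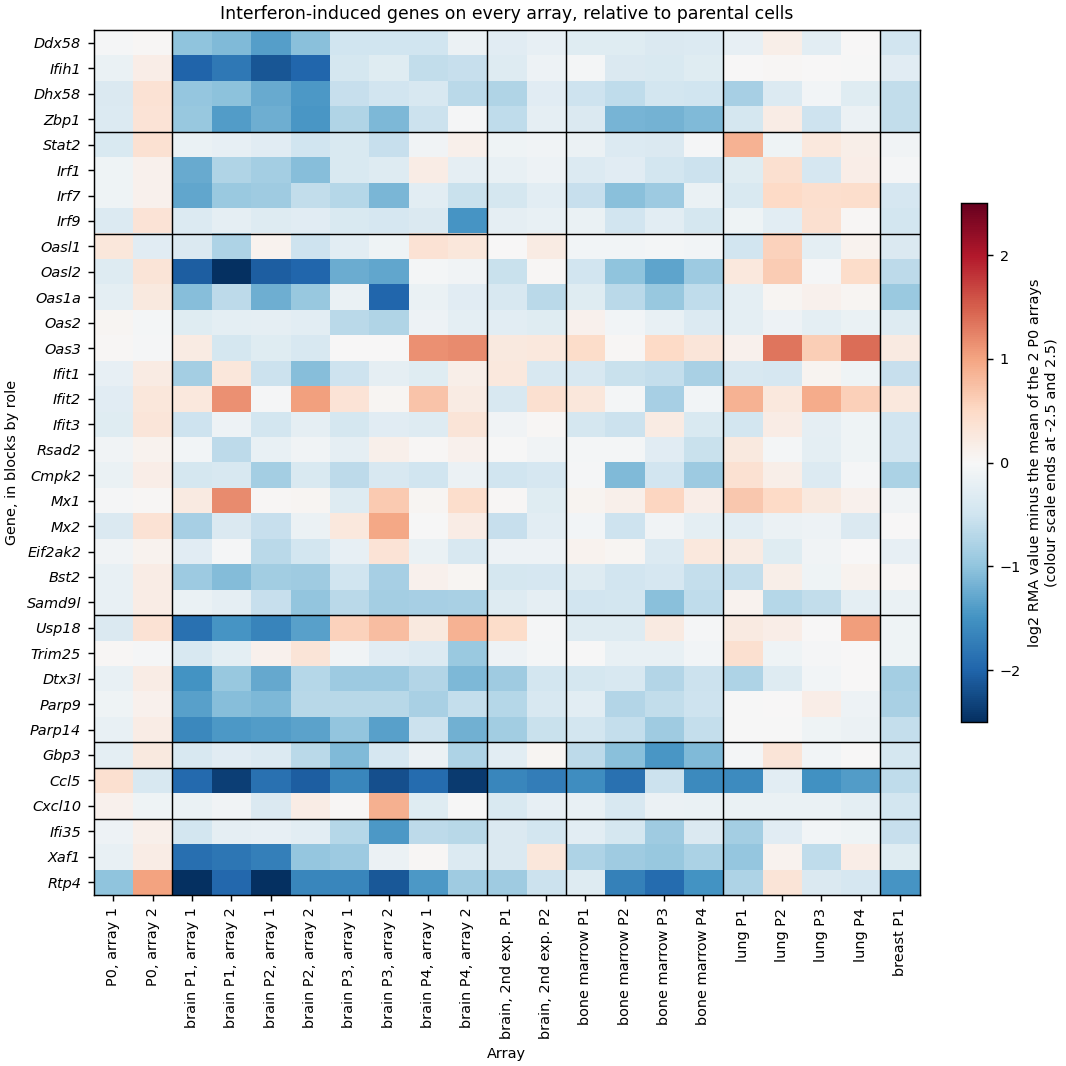
Difference of each log2 RMA value from the mean of the 2 P0 arrays (colour, blue for lower and red for higher) for the 34 measured members (rows, in blocks by role) on the 21 arrays (columns, with lines between tissues). The 4 columns of brain P1 and P2 are the bluest block, and Ccl5 is blue in every adapted culture.

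Differences between groups were tested with limma over all 21 arrays, first on the 10000 probe sets with the highest mean level (7052 genes), of which 7 were members, and then on all 34760 probe sets (19937 genes), in which all 34 members were tested with less power. A gene was called at a Benjamini-Hochberg adjusted p under 0.05. At brain P1 against P0 the members' median difference was -0.58, with 32 of 34 below 0, where the median of all genes was 0.02 and 47.0% were below 0. At P2 it was -0.77 with 31 of 34 below 0, against 0.03 and 45.7%. In the fit of the 10000 brightest probe sets 4 of the 7 members fell at P1, where 3.08% of all genes were called lower, and the same 4 fell at P2, where 8.18% were: Irf1, Parp9, Dtx3l and Ddx58. In the fit of all probe sets Ifih1 and Oasl2 fell at P1 (0.221% of all genes called lower) and Ifih1 fell at P2 (0.411%). No member rose. The median was -0.79 and -0.48 at P1 without P0 array 1 or array 2, and -0.92 and -0.59 at P2.

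**Figure D2:**
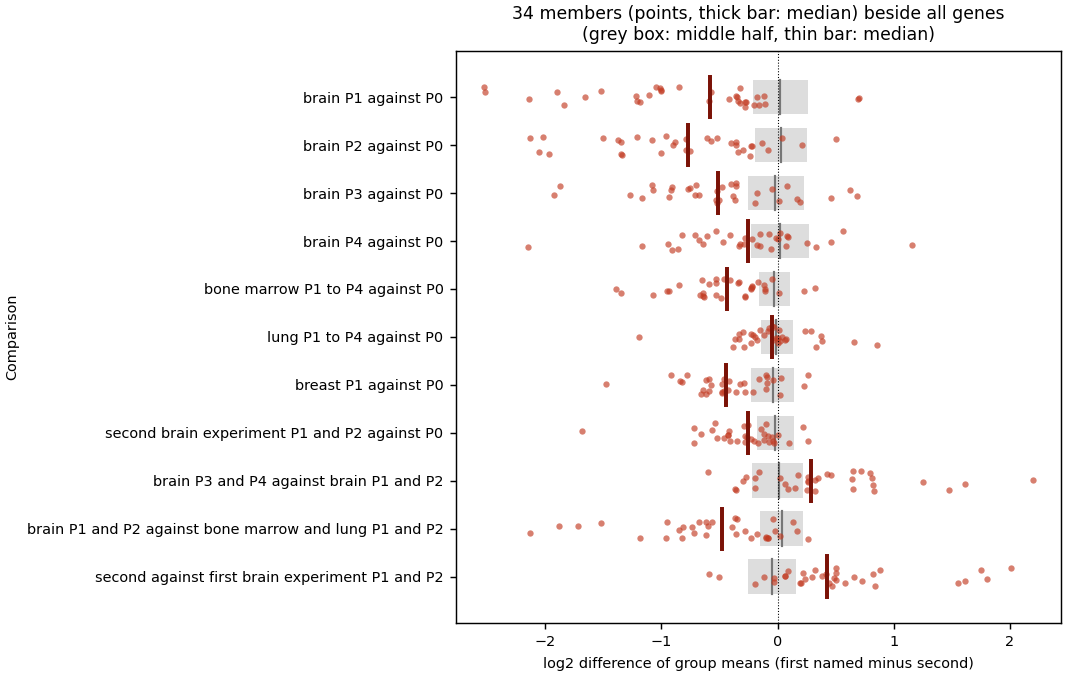
Difference of group means on the log2 scale (horizontal axis) in 11 comparisons (vertical axis). Points are the 34 members and the thick bar their median, and the grey box and thin bar are the quartile range and the median of all 19937 genes. In the comparisons with P0 the members' median lies left of the grey box for every group except lung, where it is -0.04.

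Among the sensors of foreign nucleic acid, all 4 members were lower at brain P1 and P2, with median differences of -1.12 and -1.35. Ifih1, which encodes MDA5, the sensor of long double-stranded RNA whose promoter is printed above, stood at 6.85 and 7.20 in P0, at 5.02 and 5.23 at brain P1 and at 4.89 and 5.05 at P2. The 4 early brain arrays were the lowest of all 21, since the other 17 lay between 6.4 and 7.20. The fall was 3.73-fold at P1 (log2 difference -1.90, standard error 0.22, adjusted p = 0.022) and 4.15-fold at P2 (-2.05, adjusted p = 0.018) by limma over all probe sets. Neither call held without any 1 of the 4 arrays compared, with adjusted p of 0.11 to 0.17 at P1 and 0.079 to 0.13 at P2, while the differences stayed between -2.23 and -1.72. Ddx58, which encodes RIG-I, the sensor of RNA with a 5′ triphosphate, was the brightest member and read 9.46 and 9.50 in P0, 8.48 and 8.38 at P1 and 8.11 and 8.43 at P2. Its fall was 2.07-fold at P1 (-1.05, standard error 0.19, adjusted p = 0.018) and 2.31-fold at P2 (-1.21, adjusted p = 0.0062) by limma on the brightest probe sets. The P2 call held when any 1 of the 4 arrays was left out (adjusted p at most 0.044) and the P1 call did not (0.078 to 0.14). Dhx58, which encodes their regulator LGP2, and Zbp1, a sensor of nucleic acid in the Z form, were not called, with differences of -1.0 and -1.18 at P1 and -1.35 and -1.35 at P2.

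Of the transcription factors, Irf1 was called and Irf7, Irf9 and Stat2 were not. Irf1, a factor that both interferon classes induce and that binds the same element, read 8.67 and 8.90 in P0, 7.53 and 8.03 at brain P1 and 7.93 and 7.72 at P2. It fell 2.01-fold at P1 (-1.01, standard error 0.22, adjusted p = 0.042) and 1.95-fold at P2 (-0.96, adjusted p = 0.027), calls that no fit without 1 of the arrays kept (0.082 to 0.25 and 0.081 to 0.14). The 4 early brain arrays again lay below the other 17, which began at 8.24. Irf7, the factor that amplifies interferon production, differed by -1.11 at P1 and -0.75 at P2, and the ISGF3 subunits Irf9 and Stat2 by -0.28 and -0.18 at P1.

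The antiviral effectors were the most mixed role. Of 15 measured, 13 were below 0 at P1 and 13 at P2, with medians of -0.32 and -0.36, and only Oasl2 was called. Oasl2, a relative of the oligoadenylate synthetases, had the widest range of group means of the 10 members called in any comparison. It read 7.08 and 7.72 in P0, 5.33 and 4.42 at brain P1, 5.34 and 5.42 at P2, 6.16 and 6.10 at P3 and 7.36 and 7.32 at P4. The fall at P1 was 5.76-fold (-2.53, standard error 0.34, adjusted p = 0.037 over all probe sets), and with 1 of the 4 arrays left out the adjusted p was 0.064 to 0.25 and the difference -2.98 to -2.07. The P2 difference was -2.02. Bst2, which encodes the membrane protein tetherin that holds budding virus at the cell, differed by -1.0 and -0.88 with no call. Oas1a, which makes the activator of RNase L, differed by -0.85 and -1.08, and Oas2 and Oas3 of the same family by -0.27 and -0.11 at P1. Ifit1, which binds the ends of foreign RNA, and its partner Ifit3 differed by -0.28 and -0.32 at P1, and Ifit2 by 0.69. Rsad2, which encodes viperin, Cmpk2, Samd9l and the kinase gene Eif2ak2, which encodes PKR, differed by -0.36, -0.42, -0.20 and -0.16, and Oasl1 by -0.57. Mx1 and Mx2 were the dimmest members, with levels of 2.79 to 4.28 and 2.24 to 4.05 over all arrays, and differed by 0.70 and -0.59 at P1 with no call.

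Of the ubiquitin-like and ADP-ribose genes all 5 measured were below 0 at P1. Usp18, the protease that removes ISG15 and also restrains the interferon receptor, read 6.29 and 7.0 in P0, 4.78 and 5.18 at brain P1 and 5.0 and 5.29 at P2, with differences of -1.66 and -1.50 that were not called over all probe sets. Dtx3l and Parp9 encode partners in a ubiquitin ligase complex and lie side by side on chromosome 16, where their annotated spans overlap at one end and where Parp14 also lies. Dtx3l read 7.84 and 8.2 in P0, 6.53 and 7.08 at P1 and 6.75 and 7.30 at P2, and fell 2.32-fold at P1 (-1.21, standard error 0.26, adjusted p = 0.039) and 1.99-fold at P2 (-1.0, adjusted p = 0.043). Parp9 read 7.42 and 7.65 in P0, 6.18 and 6.47 at P1 and 6.42 and 6.85 at P2, and fell 2.33-fold at P1 (-1.22, standard error 0.21, adjusted p = 0.015) and 1.87-fold at P2 (-0.90, adjusted p = 0.026). The early brain arrays lay below P0 for both genes. Without 1 array the adjusted p was 0.055 to 0.23 for both genes at P1 and 0.043 to 0.23 at P2, and the lone call that held was Parp9 at P2 without brain P2 array 2. Parp14, which encodes an ADP-ribosyltransferase, differed by -1.52 and -1.37 with no call. Trim25, the ubiquitin ligase of RIG-I, differed by -0.32 at P1 and 0.21 at P2.

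Ccl5 was low at brain P1 to P4, as were Dtx3l, Parp9 and Parp14 among others. This chemokine of T cells and monocytes read 7.95 and 7.14 in P0, and 5.61 and 5.2, 5.68 and 5.48, 5.91 and 5.34, and 5.63 and 5.16 at brain P1 to P4, so all 8 brain arrays lay below both P0 arrays with no return at P3 and P4. The differences were -2.14, -1.97, -1.92 and -2.15, none called over all probe sets. With a term for the set of brain arrays, an alternative chosen after seeing the data, Ccl5 was called at P1 and at P2. Ccl5 was also low on bone marrow (5.67 to 7.01), on lung (5.97 to 7.29) and in the second brain experiment (5.92 and 5.82), with differences from P0 of -1.39, -1.19 and -1.68. Cxcl10, an attractant of T cells, was near the floor at 4.27 to 5.62. Gbp3, a guanylate-binding protein of vacuole defence, differed by -0.35 and -0.52 at brain P1 and P2 and by -1.07 on bone marrow. The P0 arrays read 5.19 and 7.22 for Rtp4, and its differences of -2.52 and -2.13 were not called.

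By P3 and P4 most members in the brain series were higher than at P1 and P2, with 26 of 34 means above and a median difference of 0.29, against 0.01 for all genes. The brightest probe sets gave Irf1 (0.80, standard error 0.16, adjusted p = 0.0073) and Ddx58 (0.72, standard error 0.13, adjusted p = 0.0053) as risen, 2 of 7 members where 10.4% of all genes were called higher, and Ifi35 as fallen (-0.60, adjusted p = 0.033) where 15.4% were called lower. Over all probe sets 4 of 34 members rose, where 1.72% of all genes did. Usp18 reached 7.23 and 7.41 at P3 and 6.89 and 7.52 at P4, a 4.60-fold rise (2.2, standard error 0.23, adjusted p = 0.0043), and the P3 and P4 arrays lay within or above the P0 range. Ifih1 rose 2.80-fold (1.48, adjusted p = 0.0040) to 6.58 and 6.72 at P3 and 6.4 and 6.44 at P4, still below both P0 arrays. Oasl2 rose 3.05-fold (1.61, adjusted p = 0.016) and Xaf1, which encodes an antagonist of the apoptosis inhibitor XIAP, rose 2.37-fold (1.25, adjusted p = 0.045). Xaf1 read 6.07 and 6.46 in P0, 4.39 and 4.46 at P1, 4.55 and 5.30 at P2, 5.35 and 6.11 at P3 and 6.29 and 5.93 at P4. The rises of Irf1, Ddx58, Usp18 and Ifih1 held when any 1 of the 8 arrays was left out (adjusted p at most 0.032), and that of Oasl2 did not without either P2 or either P4 array (up to 0.069). The calls of Xaf1 and Ifi35 were kept in 1 of 8 such fits each, that without array 1 of P3.

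The return was uneven between members. All 4 early brain arrays lay below all 4 late ones in 9 members (26.5%, all genes 4.97%), namely Ddx58, Ifih1, Dhx58, Irf1, Oasl2, Mx2, Bst2, Usp18 and Xaf1. Of these Mx2 was near the floor, under the lower quartile of each of these arrays (2.24 to 4.05). All 4 late brain arrays lay below both P0 arrays in 13 members (38.2%, all genes 8.95%), and Dtx3l, Parp9, Parp14, Ccl5 and Ifi35 were among these. Parp9, for example, read 6.84 and 6.84 at P3 and 6.73 and 6.93 at P4. Ifi35, which encodes a protein that binds the factor NMI, was the 1 of the 8 members lower at P3 and P4 than at P1 and P2 that passed the test, from 8.23 and 8.48 in P0 and 7.90 to 8.15 at P1 and P2 to 7.64 and 6.91 at P3 and 7.70 and 7.66 at P4. Against P0, no member was called at P3 or P4 among the brightest probe sets, where 0.425% and 0.695% of all genes were. At an unadjusted p under 0.05 in limma over all probe sets 12 of 34 members were lower at P3 and 9 at P4, against 4.01% and 4.64% of all genes, and Oas3 was higher at P4 (1.16). The median differences were -0.51 and -0.25.

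**Figure D3:**
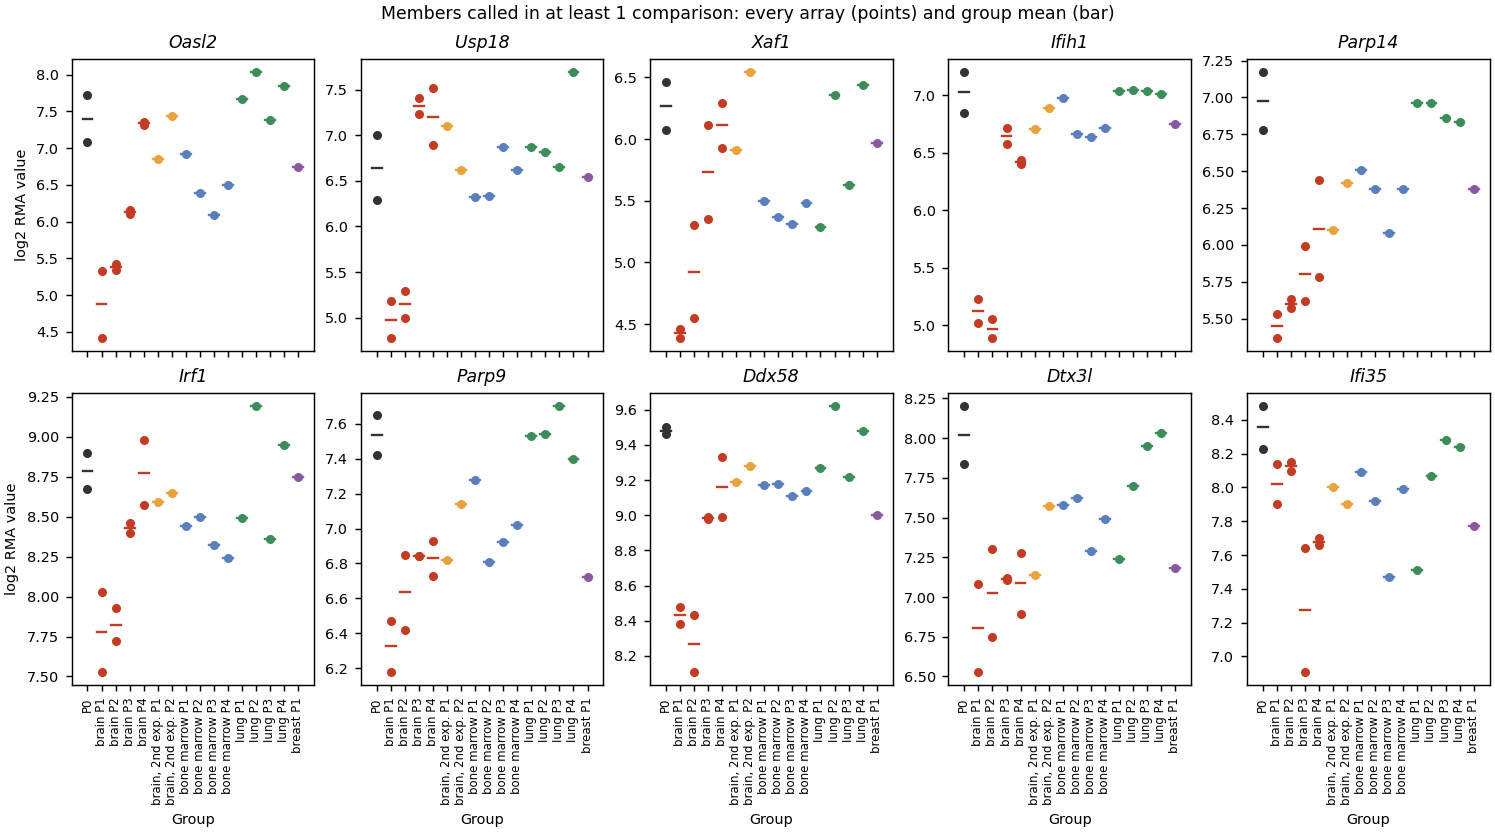
Log2 RMA value (vertical axis) of the 10 members called in at least 1 comparison, on every array (points) and as group means (bars), by group (horizontal axis). The red brain points at P1 and P2 are the lowest of each panel for Oasl2, Usp18, Ifih1, Irf1 and Ddx58, and Ifi35 shows its lowest point at brain P3.

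In the second brain experiment most members were higher than at the same passages of the first, a comparison in which P0 does not enter. The members' median difference was 0.43, with 28 of 34 higher in the second experiment, where the median of all genes was -0.05. Ddx58 (0.88, standard error 0.16, adjusted p = 0.011) and Irf1 (0.82, standard error 0.19, adjusted p = 0.030) were higher among the brightest probe sets, 2 of 7 members where 7.12% of all genes were called higher. Over all probe sets 3 of 34 were called higher, where 0.782% of all genes were: Oasl2 by 4.04-fold (2.01, adjusted p = 0.028), Usp18 by 3.48-fold (1.80, adjusted p = 0.040) and Ifih1 by 3.36-fold (1.75, adjusted p = 0.0093). In the second experiment Ifih1 read 6.71 and 6.89, Oasl2 6.85 and 7.43 and Usp18 7.10 and 6.62, all above the early arrays of the first. Cd68, which was high on those early arrays and also at brain P4 (7.22 and 8.22), read 6.82 and 6.58 in the second experiment, and its part was not tested. Both arrays lay above all 4 early arrays of the first experiment in 18 members (52.9%, all genes 10.1%). The calls of Ddx58 and Ifih1 held without any 1 of the 4 early brain arrays, and that of Usp18 in none of those fits (adjusted p 0.10 to 0.13). Irf1 lost its call without P1 array 1 or P2 array 2 (up to 0.082), and Oasl2 without P2 array 1, P1 array 2 or P2 array 2 (up to 0.10). Against P0 the second experiment gave no called member, where 0.156% of all genes among the brightest were called, a median of -0.25, and 3 of 34 members lower at an unadjusted p under 0.05 (Ccl5, Parp14 and Parp9, limma over all probe sets, 2.39% of all genes). The median was -0.43 without P0 array 1 and -0.08 without array 2. Each experiment was 1 series of passages, so the experiment and its cultures cannot be told apart.

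Cells of the same early passages on bone marrow and lung were also higher than those on brain. The median difference of brain P1 and P2 from bone marrow and lung P1 and P2 was -0.47 (all genes 0.04), and 30 of 34 members were below 0. Among the brightest probe sets 4 of 7 members were called lower on brain, where 13.4% of all genes were: Ddx58 (-0.96, standard error 0.13, adjusted p = 0.0014), Irf1 (-0.85, adjusted p = 0.0059), Parp9 (-0.81, adjusted p = 0.0051) and Dtx3l (-0.62, adjusted p = 0.046). Over all probe sets 5 of 34 were, where 1.92% of all genes were: Oasl2 by 4.36-fold (-2.13, adjusted p = 0.0062), Ifih1 by 3.68-fold (-1.88, adjusted p = 0.0019), Usp18 by 2.87-fold (-1.52, adjusted p = 0.019), Parp14 by 2.26-fold (-1.18, adjusted p = 0.027) and Ddx58. The calls of Ddx58, Irf1 and Parp9 among the brightest, and of Ifih1 and Oasl2 over all, held without any 1 of the 4 brain arrays. Usp18, Parp14 and Ddx58 over all probe sets held in none of these fits (adjusted p up to 0.10), and Dtx3l did not hold without array 1 of P1 or of P2 (up to 0.16). In 9 members (26.5%, all genes 6.68%) the 4 brain arrays lay below all 4 arrays of the other tissues, namely Ddx58, Ifih1, Dhx58, Irf1, Oasl2, Rsad2, Bst2, Usp18 and Parp14.

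**Figure D4:**
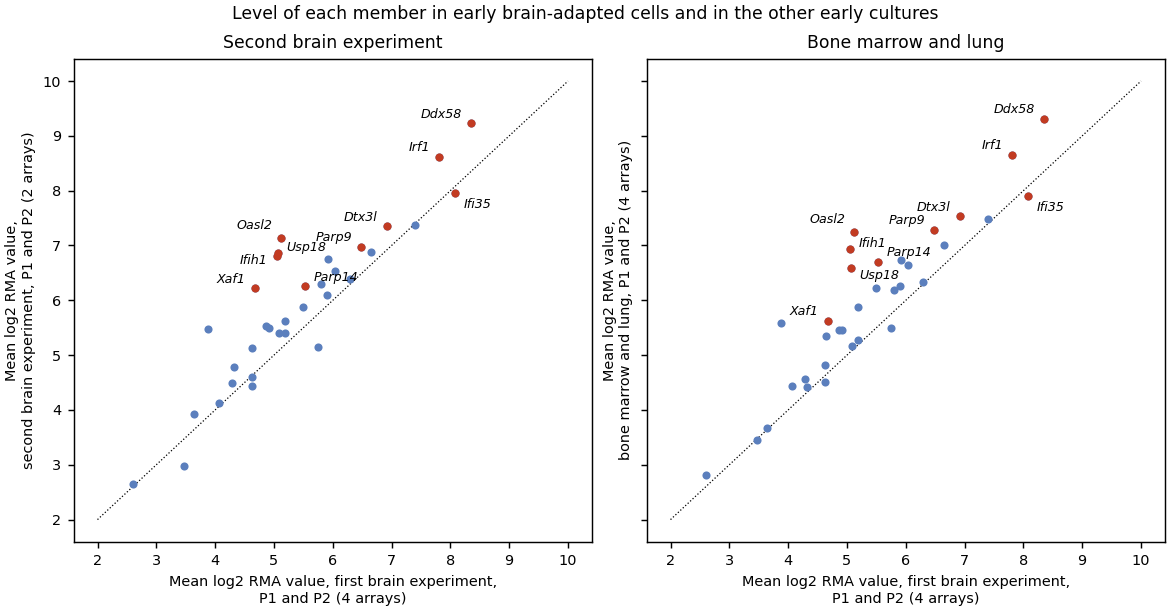
Mean log2 RMA level of each member in the first brain experiment at P1 and P2 (horizontal axis) against the second brain experiment (left, vertical axis) and against bone marrow and lung at the same passages (right, vertical axis), with members called in any comparison in red and the dotted line at equality. Of the 34 members 28 lie above the line on the left and 30 on the right, and Oasl2, Ifih1, Usp18 and Xaf1 are among the farthest from it.

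On bone marrow 31 of the 34 members had a mean below P0 over P1 to P4 (all genes 55.6%), with a median difference of -0.43. For lung the same held of 21 members (all genes 52.3%), and the median was -0.04. No member was called in either, where 0.0851% and 0.0709% of all genes among the brightest were. At an unadjusted p under 0.05 in limma over all probe sets 10 members were lower on bone marrow and 1, Ccl5, on lung, against 1.74% and 1.05% of all genes, and Oas3 was higher on lung (0.86). The bone marrow median was -0.63 and -0.32 without P0 array 1 or array 2, and that of lung -0.16 and 0.12. All 4 bone marrow arrays lay below both P0 arrays in 18 members (52.9%, all genes 9.94%). They lay below all 4 lung arrays in 7 (20.6%, all genes 2.48%), namely Ddx58, Ifih1, Oasl2, Oas1a, Parp9, Parp14 and Gbp3. At P1 to P4 Oasl2, for instance, read 6.92, 6.39, 6.09 and 6.5 in the bone marrow series. The lung series read 7.67, 8.03, 7.38 and 7.85, all higher. Oas3 read 6.20 and 6.27 at lung P2 and P4 against 4.90 and 4.84 in P0. On breast P1, 1 array, the median was -0.45 with 30 of 34 below 0 (all genes 56.0%). No member was called there (0.142% of all genes among the brightest) and 2, Parp9 and Cmpk2, were lower at an unadjusted p under 0.05 in limma (1.77% of all genes).

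Among the genes around the members in the pathway, few passed the test against P0. Of 8 measured interferon genes none was among the brightest probe sets or called, and Ifnb1, the gene of interferon beta, read 3.22 to 4.61 over all arrays. Of 8 measured receptor and kinase genes 7 were among the brightest. Of these 7, Jak1 and Jak2 were called lower at brain P1 and P2, where 3.08% and 8.18% of all genes were. Jak1, the kinase of the type I and type II receptors, read 10.05 and 9.93 in P0, 8.98 and 8.96 at brain P1, 8.87 and 9.04 at P2 and 9.74 to 9.86 at P3 and P4. It fell at P1 (-1.02, standard error 0.16, adjusted p = 0.010) and P2 (-1.04, adjusted p = 0.0061), was higher at P3 and P4 than at P1 and P2 (0.82, adjusted p = 0.0013), and was higher in the second experiment than in the first (1.13, adjusted p = 0.0017). Jak2, the partner kinase of the interferon gamma receptor, fell at P1 (-1.58, adjusted p = 0.0069) and P2 (-1.09, adjusted p = 0.017). It was called higher at P3 and P4 than at P1 and P2 (1.14), where 10.4% of all genes were called higher. At P1 and P2 both kinase genes were called lower on brain than on bone marrow and lung (Jak1 -0.94, Jak2 -0.82, all genes 13.4%). The P1 call of Jak1 held in 1 of the 4 fits without an array and that of Jak2 in 2, and at P2 in 4 and 1. Their calls among the brightest in the comparisons without P0 held in every such fit. Ifnar1 and Ifnar2, the receptor genes, read 7.77 to 9.36 and 8.51 to 9.95 and were not called. Of 13 measured sensing and adaptor genes outside the members 10 were among the brightest, and Tlr2 alone fell against P0. The call, at brain P2 (-1.32, adjusted p = 0.034, all genes 8.18%), held in no fit without 1 array. It was called higher in late than early brain (1.64) and in the second experiment than the first (1.71). On early brain it (-1.88) and Myd88 were called lower than on bone marrow and lung. These Tlr2 calls held in every fit without 1 array (all genes 10.4%, 7.12% and 13.4%). Ikbke was called lower in the second experiment. Of 10 negative regulators none was called against P0, and Tnfaip3 was called as Tlr2 was in the comparisons without P0.

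Most other interferon-induced genes, outside the 38, were also lower at the early brain passages. Of 58 measured, 48 were below 0 at brain P1 and 45 at P2 (all genes 47.0% and 45.7%), with medians of -0.58 and -0.45. Among the 24 in the brightest probe sets 6 fell and 0 rose at P1 and 10 fell and 0 rose at P2, where 3.08% and 8.18% of all genes were called lower. Those called at both passages were Isg20, Ifi27, Lgals3bp and 3 genes of antigen processing in the major histocompatibility region. Isg20 differed by -1.19 and -1.33 at P1 and P2, Ifi27 by -1.75 and -1.20 and Lgals3bp by -2.03 and -1.38. None of their calls held in every fit without an array. Tapbp, also of antigen processing, was called at P2 and not at P1 (-1.16, adjusted p = 0.028 by limma on the brightest probe sets). Its call held in 1 of 4 fits without an array. Psmb8, a subunit of the immunoproteasome, read 8.2 and 8.44 in P0, 5.63 and 4.30 at P1, 5.24 and 5.02 at P2, 7.53 and 7.48 at P3 and 8.50 and 8.42 at P4. It fell at P1 (-3.35, standard error 0.35, adjusted p = 0.0012) and P2 (-3.19, adjusted p = 0.0016). Tap2, a subunit of the peptide transporter, fell at P1 (-1.86, adjusted p = 0.0032) and P2 (-1.80, adjusted p = 0.0027), and its neighbour Psmb9 fell at P1 (-1.83, adjusted p = 0.0098) and P2 (-2.18, adjusted p = 0.0031). The calls of Psmb8 and Tap2 held without any 1 of the 4 arrays, and that of Psmb9 at P1 in 2 of these 4 fits. In the second experiment Psmb8 read 8.08 and 8.38, higher than in the first (3.18, adjusted p = 0.00042). Between late and early brain passages 9 of the 24 rose and 2, Ifitm2 and Pml, fell, where 10.4% of all genes were called higher and 15.4% lower.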

How the data were processed

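RNA of sorted and cultured cells was hybridised to 21 arrays, 1 per culture. The deposited values are log2 levels, which the authors made with RMA in Affymetrix Expression Console (background correction, quantile normalisation, median polish), so signals near background are compressed and differences of dim genes understated. Of 34760 probe sets, 21640 carried 1 gene symbol, 1321 several and 11799 none in GEO's platform annotation. Probe sets with several symbols were not used, and the brightest stood for a gene.

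A mean per group was fitted to all 21 arrays (16 groups, 5 residual degrees of freedom, prior 4.55) with limma 3.58.1 in R 4.3.3, with empirical Bayes variances and Benjamini-Hochberg adjustment. The 10000 probe sets with the highest mean (at least 6.87) were the main set. The fit of all probe sets stands beside it because 27 measured members lay under that limit. Tables and plots used Python 3.11.15.

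The members, gene lists and comparisons were chosen with earlier results of these data known. Every member is named, with values per array for those called. On simulated data for brain P1 against P0 (10000 probe sets), 2, 31, 50 and 50 of 50 genes changed 1.5-, 2-, 4- and 8-fold were recovered, and without the limit (34760 probe sets) 0, 2, 26 and 42. The number of arrays limits the precision. The labels name the second brain arrays of P1 to P4 as 1 technical replicate series. The differences between the sets correlated across genes between passages (r from 0.13 to 0.42 among the brightest, 0.19 to 0.41 over all probe sets), so a term for the set was fitted as a replicate block. The other groups, P0 among them, are outside the pairing. Alternatives are given in the closing section.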

Additional observations from a re-analysis of the deposited data

Results flagged for a closer look

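Members whose early change differed between tissues, or between the first and second brain experiment, are listed here because the difference itself was tested by limma, in comparisons that P0 does not enter. Between brain and the pair of bone marrow and lung at P1 and P2, the brightest probe sets gave Ddx58 at -0.96, Parp9 at -0.81, Irf1 at -0.85 and Dtx3l at -0.62. All probe sets gave Oasl2 at -2.13, Ifih1 at -1.88, Usp18 at -1.52, Parp14 at -1.18 and Ddx58 at -0.96. Between the second and the first brain experiment the values were 0.88 for Ddx58 and 0.82 for Irf1 among the brightest, and 2.01 for Oasl2, 1.80 for Usp18 and 1.75 for Ifih1 over all. Each of these members had all 4 early brain arrays of the first experiment below both P0 arrays. No group held enough arrays to look for an array that stands apart within it.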

How the results depend on the processing

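Among the 10000 brightest probe sets, leaving out 1 array left 0 to 0 members called at brain P1 (4 with all arrays), 1 to 2 at P2 (4), 0 to 1 at P3 (0, Ifi35 without array 1 of P3) and 1 to 2 in the second against the first experiment (2). Over all probe sets it left 0 to 0 at P1 (2), 0 to 0 at P2 (1), 2 to 4 in late against early brain (4), 2 to 2 in brain against bone marrow and lung (5) and 1 to 2 in the second against the first experiment (3). The members' median ranged from -0.84 to -0.48 at P1, -0.92 to -0.59 at P2, -0.71 to -0.34 at P3, -0.63 to -0.32 on bone marrow, -0.16 to 0.12 on lung, -0.49 to -0.27 on breast and -0.43 to -0.08 in the second experiment against P0, with P0 array 1 or 2 left out at 1 or both ends of each range. The lung median thus turned sign without P0 array 2.

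A replicate block for the set of brain arrays, chosen after seeing the data, lost none of the calls of members. Over all probe sets it added Ccl5 at P1 (3 called) and at P2 (2 called), Ddx58 and Oas3 in late against early brain (6) and Parp9 in brain against bone marrow and lung (6), and it changed no other call. Without the 5 arrays of the highest lower quartile, an alternative chosen after seeing the data that leaves 1 residual degree of freedom, 0 members were called in any comparison of either fit, while the medians were -0.84 at P1 and 0.43 in late against early brain. With no limit on level 2 members were called at P1 and 1 at P2, and with 7000 probe sets kept 2 at P1, 2 at P2 and 2 in brain against bone marrow and lung. The 10000 probe sets of the highest group mean, which a member may pass through its high group, held 9 members. Of these, 7, 7, 1 and 1 were called lower at brain P1 to P4, where 262, 611, 33 and 60 of 6953 genes were. In late against early brain 4 rose and 1 fell (all genes 785 and 1178). In brain against bone marrow and lung 7 were lower (all genes 982), and 4 were higher in the second against the first experiment (all genes 569). Ccl5 is the member called at P3 and P4. It passed this limit (7.48) only through its P0 mean of 7.55, so the filter favoured its calls against P0, which give no support. Oasl2 and Usp18 passed it only through lung groups. For Oasl2 these included lung P1 and P2, so its call of brain against bone marrow and lung was favoured likewise. For Usp18 it was lung P4 alone (7.69), which does not enter that comparison. Among the 10000 probe sets of the highest mean, a demand for a 2-fold change left 1 at P2 and 0 in late against early brain, in brain against bone marrow and lung and in the second against the first experiment. Cyclic loess gave 2 at P2, and over all probe sets 3 at P2 and 8 in late against early brain. A robust variance trend over all probe sets gave 5 at P1, 6 at P2, 7 in late against early brain and 5 in the second against the first experiment. Subtracting chromosome medians gave 1 in the second against the first experiment and a median of -0.37 at P3. The share of all genes called was not counted under the replicate block, the 7000 probe sets, cyclic loess, the robust trend or chromosome medians. Their counts are therefore not read as results about the members. For single members 278 of 408 values kept their call, 130 lost it and 0 changed sign. Apart from what the construction shows, the cause was not tested. The lone arrays and dim members limit what could be called.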
